A study of Mus musculus with 40 samples.

Results

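The genes of 10 glycolytic enzymes (Hk1, Hk2, Pfkl, Pfkp, Aldoa, Gapdh, Tpi1, Pgk1, Eno1 and Ldha) were followed through 7 ChIP-seq targets in mouse small pre-B cells. A ChIP region belonged to a gene when that gene was its nearest in the authors' annotation, at no more than 200 kb from the start site. This gave 326 of the 863771 regions in the deposited tables, and all 10 genes had at least 1. Per target there were 40 regions for CTCF, 44 for SMC3, 43 for RAD21, 28 for NIPBL, 47 for WAPL, 67 for H3K27ac and 57 for H3K4me1. Pfkp alone held 149 of the 326, and Aldoa held 3. Tpi1 had regions in the H3K27ac and H3K4me1 tables only.

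The cells were sorted from mouse bone marrow. KO cells came from Brwd1-/- mice, ATPneg cells were WT cells cultured with oligomycin A at 126 nM for 2 h, and WT cells were used without culture. Mouse strain, age and sex, and the part of Brwd1 deleted, are not given in the sources used here, so reads near Brwd1 cannot check the KO label. KO and WT were profiled for all 7 targets and ATPneg for SMC3, RAD21, NIPBL and WAPL, with 2 libraries per target and condition. No cultured group without oligomycin was analysed here, so culture and drug cannot be told apart in ATPneg.

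Glycolysis turns glucose into pyruvate and supplies ATP without oxygen. Hexokinases (Hk1, Hk2) phosphorylate glucose, phosphofructokinases (Pfkl, Pfkp) commit the sugar to the pathway, aldolase (Aldoa) splits it, and triosephosphate isomerase (Tpi1) interconverts the products. Glyceraldehyde phosphate dehydrogenase (Gapdh), phosphoglycerate kinase (Pgk1) and enolase (Eno1) carry the payoff steps, and lactate dehydrogenase (Ldha) turns pyruvate into lactate. CTCF is a DNA-binding protein at which cohesin, the ring that contains SMC3 and RAD21, comes to rest while it extrudes chromatin loops. NIPBL supports cohesin loading and movement, and WAPL releases cohesin. H3K27ac marks active promoters and enhancers, and H3K4me1 marks enhancers and promoter flanks. Small pre-B cells have left the cell cycle and recombine their light chain genes.

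Libraries held 3784506 to 7415143 reads inside regions in KO for SMC3, RAD21 and NIPBL, against 15416715 to 24962590 in WT, and 16048349 to 30496715 for WAPL and the histone marks. CTCF libraries held 3880112 to 5033230 reads, except WT 2 with 17055094. That library stood apart from WT 1 (correlation of log2 CPM, read counts scaled to the TMM-adjusted total of reads in tested regions, 0.63 across regions), and RAD21 KO 2 from KO 1 (0.82). The other pairs of libraries correlated at 0.92 or more. For the H3K27ac and H3K4me1 KO samples the genotype label reads WT while titles and descriptions say knockout, and the titles were followed. Peak names inside the H3K27ac KO, H3K4me1 WT, NIPBL KO 2 and NIPBL WT 1 lists belong to other samples. H3K4me1 regions lay within 1 kb of the start sites of 10 of 10 B lineage marker genes, whose summed level was 34.8 to 35.5 CPM per kb in KO and 73.3 to 74.4 in WT. The same count was 2 of 6 for T cell markers (14.1 to 18.1 in KO, 13.8 to 16.8 in WT) and 1 of 6 for myeloid markers (11.4 to 15.7 in KO, 9.54 to 12.7 in WT). The T cell and myeloid markers with such a region were Cd3e, Cd3g and Lyz2, and Cd3d, Cd4, Csf1r and Mpo were among those without one. Each sum ran over the genes of its list with a region. The sums therefore set KO beside WT, and not the lists beside each other. The plan had named H3K27ac for reading these markers, and there the lists differed less in their share of genes with a region. H3K27ac regions lay at 7 of 10 B lineage starts (27.9 to 29.3 CPM per kb in KO, 38.6 to 40.4 in WT). They lay at 2 of 6 T cell starts (8.90 to 10.9 in KO, 7.54 to 9.57 in WT). For myeloid markers they lay at 2 of 6 (13.0 to 13.2 in KO, 11.2 to 12.4 in WT). In bulk chromatin, fewer cells carrying a mark and less of it per cell cannot be told apart.

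The promoters below (RefSeq, GRCm38.p6, from 250 bases before to 50 after the start site) are those at which the largest set of changes was read, Pgk1, and 4 of those at which H3K4me1 was lower in KO. All 10 genes matched RefSeq, with 16 promoters. Capitals mark GGGCGG (GC box), ACGTG (core of the hypoxia response element) and a loose core of the CTCF motif, each searched on both strands. In the 32851 promoters of the table, 35.7% held GGGCGG, 19.6% held ACGTG and 8.61% held the loose CTCF core. The windows lie at chr10:78009758-78010057 (Pfkl, minus strand), chr6:125165724-125166023 (Gapdh, minus strand), chrX:106186850-106187149 (Pgk1, plus strand), chr4:150236947-150237246 (Eno1, plus strand) and chr7:46845554-46845853 (Ldha, plus strand).
Pfkl: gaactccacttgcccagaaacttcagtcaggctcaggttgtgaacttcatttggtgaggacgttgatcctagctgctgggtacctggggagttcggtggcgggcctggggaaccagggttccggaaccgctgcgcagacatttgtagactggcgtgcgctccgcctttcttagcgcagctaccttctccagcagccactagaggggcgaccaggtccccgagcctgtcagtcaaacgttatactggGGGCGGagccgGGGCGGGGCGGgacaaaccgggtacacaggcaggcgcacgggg
Gapdh: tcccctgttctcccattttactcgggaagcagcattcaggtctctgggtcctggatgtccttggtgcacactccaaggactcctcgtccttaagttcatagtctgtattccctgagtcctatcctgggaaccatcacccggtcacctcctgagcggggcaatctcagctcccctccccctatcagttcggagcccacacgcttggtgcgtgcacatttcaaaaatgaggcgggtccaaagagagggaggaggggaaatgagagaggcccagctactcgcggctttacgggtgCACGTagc
Pgk1: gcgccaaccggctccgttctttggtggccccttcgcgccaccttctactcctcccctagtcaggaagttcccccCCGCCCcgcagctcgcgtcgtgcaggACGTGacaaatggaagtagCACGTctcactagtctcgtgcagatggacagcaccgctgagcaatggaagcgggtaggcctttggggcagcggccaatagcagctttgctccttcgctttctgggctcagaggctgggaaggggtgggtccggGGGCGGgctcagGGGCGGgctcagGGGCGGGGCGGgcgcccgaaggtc
Eno1: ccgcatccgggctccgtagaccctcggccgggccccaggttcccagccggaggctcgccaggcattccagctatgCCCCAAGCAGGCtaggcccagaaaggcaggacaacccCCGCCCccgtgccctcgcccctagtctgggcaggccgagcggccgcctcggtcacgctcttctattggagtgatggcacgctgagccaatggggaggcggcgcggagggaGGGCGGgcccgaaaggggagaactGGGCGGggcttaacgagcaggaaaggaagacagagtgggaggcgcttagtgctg
Ldha: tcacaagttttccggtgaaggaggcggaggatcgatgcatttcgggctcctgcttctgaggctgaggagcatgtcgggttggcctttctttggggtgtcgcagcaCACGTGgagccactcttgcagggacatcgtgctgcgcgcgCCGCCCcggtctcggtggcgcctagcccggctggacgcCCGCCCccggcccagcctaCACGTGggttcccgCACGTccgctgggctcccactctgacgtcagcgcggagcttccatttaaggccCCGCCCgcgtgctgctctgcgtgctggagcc

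The Pgk1 window held 5 GC boxes and 2 matches of ACGTG and no match of the loose CTCF core, which says only that these letters are not in this window. Pfkl held 3 GC boxes, and their last pair overlap by 1 base, as do the last pair of Pgk1. Ldha held 3 GC boxes and 5 matches of ACGTG, 4 of them the strands of its pair of CACGTG E-boxes. Gapdh held 1 match of ACGTG, and Eno1 held 3 GC boxes and 1 match of the loose CTCF core.

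The start site of Pgk1 was the one place among the 10 genes where all 7 targets had a region within 1 kb of a start site. The labels do not describe the knockout allele, and the Pgk1 promoter is a common part of targeting cassettes. Reads from the Pgk1 locus and from any copy of its promoter in the knockout allele cannot be told apart here, and this touches every KO value at this site. The 7 regions were 568 to 709 bp long and began within 13 bp of each other, at X:103382057 to 103382070 in mm9, the build of the files. SMC3 had 49.8 and 51.8 CPM in KO, against 4.70 and 3.19 CPM in WT. H3K27ac had 12.5 and 13.4 CPM in KO, against 2.18 and 1.36 CPM in WT. NIPBL had 35.7 and 24.6 CPM in KO, against 13.8 and 8.21 CPM in WT. All KO libraries lay above both WT libraries for these targets. WAPL had 15.3 and 14.1 CPM in KO, against 6.00 and 5.54 CPM in WT, also without overlap. H3K4me1 had 8.99 and 8.77 CPM in KO, against 9.46 and 9.34 CPM in WT, so KO lay just below WT for this mark, while H3K27ac had its largest difference among the regions of the 10 genes.

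In log2 units, KO over WT, H3K27ac was higher by 2.87 ± 0.14 at the Pgk1 start site (SE, n = 2 each, edgeR adjusted p = 5.87e-48). The log2 change was 3.69 ± 0.23 for SMC3 (edgeR adjusted p = 0.000571), 1.45 ± 0.25 for NIPBL (0.027) and 1.35 ± 0.14 for WAPL (0.00326). H3K4me1 changed by -0.08 ± 0.11 (edgeR adjusted p = 0.705), a difference that was not called. The SMC3 and H3K27ac calls held under every alternative and without any single library. The NIPBL call was lost when any 1 library was left out (log2 1.11 without WT 2 to 1.87 without WT 1), and the WAPL call without KO 1 (1.29) or KO 2 (1.42). The sequenced input held 18 reads in KO and 15 reads in WT over this region.

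CTCF at the same site had 39.2 and 41.9 CPM in KO, against 87.0 and 28.9 CPM in WT. The WT libraries lay on either side of the KO libraries, and the change was not called (log2 -0.51 ± 0.60, edgeR adjusted p = 0.499). Without WT 2 the log2 change was -1.09, and without WT 1 it was 0.54, both called, so that the direction rests on which WT library is used. RAD21 had 29.1 and 3.34 CPM in KO, against 6.39 and 4.33 CPM in WT. One KO library lay above and one below both WT libraries, and the change was not called (log2 1.599 ± 0.98, edgeR adjusted p = 0.22). Without KO 2 the log2 change was 2.43 and called, and without KO 1 it was -0.11.

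**Figure D1:**
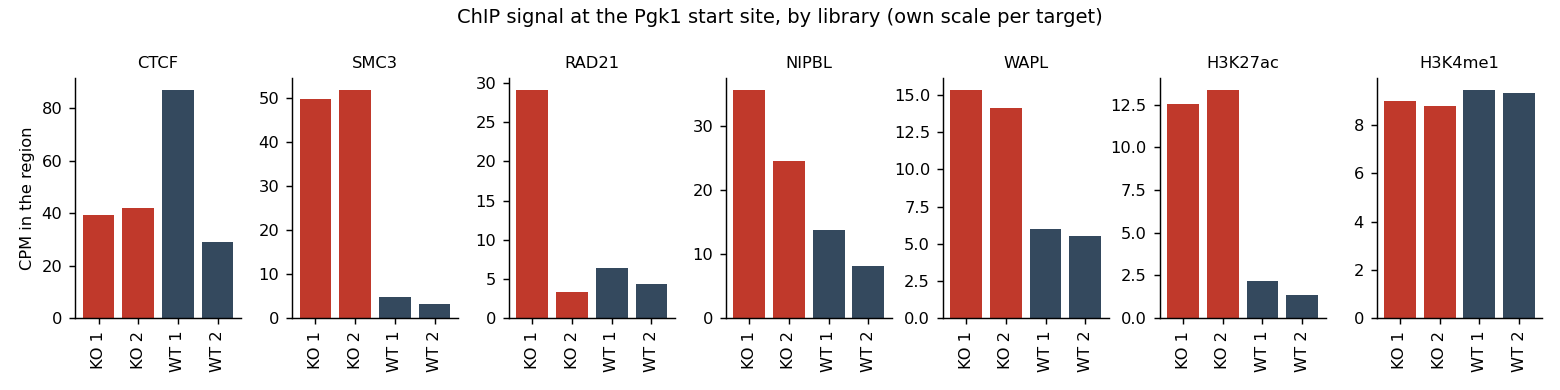
Signal at the Pgk1 start site in CPM (linear y axis from 0, own scale per target) for each library on the x axis, KO in red and WT in dark blue. Both KO bars exceed both WT bars for SMC3, NIPBL, WAPL and H3K27ac, the H3K4me1 bars lie between 8.77 and 9.46 CPM, and single libraries stand out for CTCF (WT 1, 87.0 CPM) and RAD21 (KO 1, 29.1 CPM).

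Over all regions of the 10 genes, SMC3 was higher in KO in 15 and lower in 9 of 43 tested, where over all SMC3 regions 22.1% were called higher and 18.1% lower. Without WT 2 the SMC3 split was 16 higher and 20 lower. RAD21 was higher in 3 and lower in 10 of 43 tested (2.3% and 21.1% of all regions). That RAD21 split was 6 higher and 5 lower with DESeq2, and 0 and 0 when scaled on weak regions, without a filter, with the replicate block, with limma, without WT 1 and without WT 2. WAPL was higher in 8 and lower in 19 of 47 tested (13.1% and 27.6%). NIPBL was higher in 2 and lower in 0 of 27 tested (0.995% and 0.63%). At an unadjusted p under 0.05, 6 NIPBL regions were higher and 6 lower, DESeq2 called 2 higher and 0 lower, and limma called 0. Of the 39 CTCF regions tested none was called by edgeR or DESeq2, limma called 2 lower, and edgeR's unadjusted p under 0.05 took in 3 higher and 2 lower (0.00792% and 0.0317% of all CTCF regions were called higher and lower). H3K27ac was higher in 5 and lower in 6 of 66 tested (5.9% and 10.6%). H3K4me1 was higher in 3 and lower in 9 of 57 tested (6.44% and 9.98%).

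The median log2 change of the tested regions was -0.66 for SMC3 (all regions -0.22), -1.28 for RAD21 (all regions -0.39) and -0.73 for WAPL (all regions 0.07). For CTCF it was 0.95 (all regions -0.37) and for NIPBL 0.02 (all regions 0.00). For H3K27ac it was -0.06 (all regions 0.02) and for H3K4me1 0.03 (all regions 0.00). Scaling on weak regions gave WAPL 14 higher and 15 lower and H3K27ac 1 higher and 16 lower. Scaling on library totals gave H3K27ac 7 higher and 4 lower and NIPBL 2 higher and 6 lower. Absence of overlap between KO and WT libraries was common in the tested regions of the genes. It was seen in 29 of 39 for CTCF, 33 of 43 for SMC3, 34 of 43 for RAD21 and 21 of 27 for NIPBL. For WAPL it was seen in 36 of 47, for H3K27ac in 38 of 66 and for H3K4me1 in 33 of 57. The share over all regions was not counted. Absence of overlap, here and at the single regions below, can therefore not be read as a trait of these genes.

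**Figure D2:**
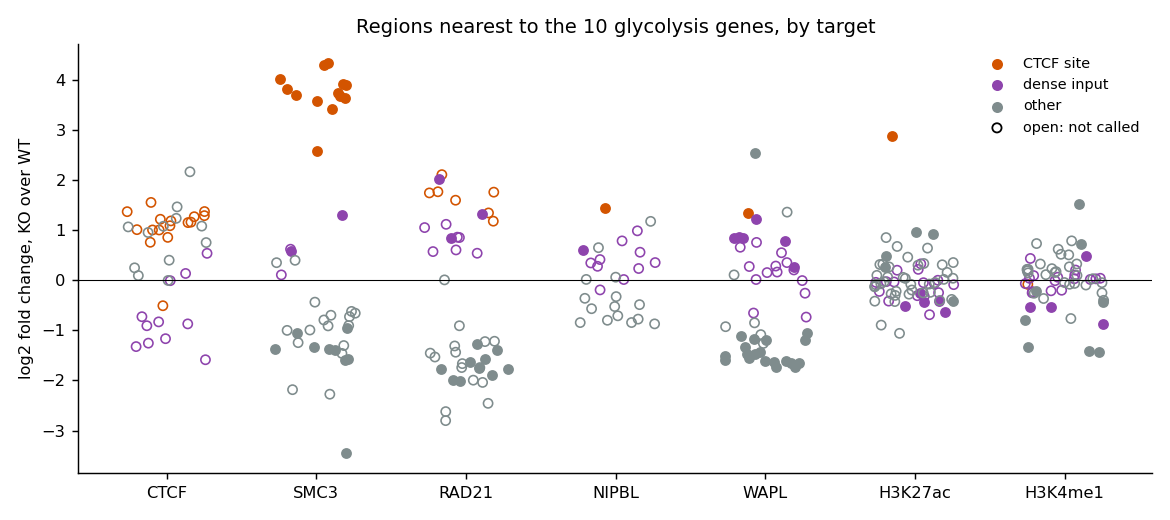
Log2 fold change, KO over WT (y axis), of each tested region of the 10 genes, by target (x axis), with filled points called by edgeR and open points not called. Orange points overlap CTCF peaks, purple points have over 100 input reads per kb and grey points are the rest. The 13 SMC3 regions at CTCF sites lie between 2.59 and 4.33.

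SMC3 separated by CTCF. A CTCF site was taken as a region that overlapped a CTCF peak of KO 1, KO 2 and WT 1, a rule chosen after the values were seen, and WT 2 was left out as the library that stood apart. All 13 SMC3 regions of the genes at such sites were higher in KO, by log2 2.59 to 4.33 with a median of 3.73. Of the 30 tested SMC3 regions elsewhere, 2 were higher and 9 lower, with a median of -0.97. The table as a whole divided in the same manner, with 98.4% of SMC3 regions at CTCF sites higher and 0.177% lower, and 7.47% higher and 21.5% lower elsewhere. The count of 13 held under every alternative and without any single library. Of the 13 regions, 9 held an SMC3 peak in both KO libraries and 1 in both WT libraries. Among all SMC3 regions at CTCF sites these shares were 68.5% and 1.27%. Regions that hold peaks mainly in 1 group favour a higher level in that group. These counts and shares are therefore not independent of which regions the set holds.

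Among the enzymes of the first steps, the SMC3 site 59961 bp downstream of the Hk2 start had 8.35 and 8.14 CPM in KO, against 0.587 and 0.563 CPM in WT (log2 3.81 ± 0.29, edgeR adjusted p = 0.000573). Of the pair of sites upstream of Pfkl, the farther, at 15662 bp, had 13.8 and 12.4 CPM in KO, against 0.979 and 0.313 CPM in WT (log2 4.33 ± 0.49). The 3 Pfkp sites lay 40265, 41297 and 188157 bp upstream, and their log2 changes were 3.89, 4.30 and 3.71. KO and WT libraries did not overlap at any of them, as in 33 of the 43 tested SMC3 regions of the genes.

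Among the enzymes of the payoff steps, the Gapdh site 3185 bp downstream of the start had 14.3 and 14.3 CPM in KO, against 1.04 and 0.813 CPM in WT (log2 3.93 ± 0.26, edgeR adjusted p = 0.000571). A second Pgk1 site, 15671 bp upstream, had 6.44 and 7.46 CPM in KO, against 0.522 and 0.750 CPM in WT (log2 3.42 ± 0.34). Eno1 had 4 sites, from 17268 bp upstream to 20035 bp downstream, with log2 changes of 3.64, 2.59, 3.57 and 3.73 in that order along the gene. The smallest of these, 3009 bp downstream, had 10.7 and 9.05 CPM in KO, against 1.96 and 1.31 CPM in WT. These values rest on few reads, at 25 to 82 reads per KO library and 4 to 30 per WT library outside the Pgk1 start site.

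RAD21, the other cohesin subunit, had 7 regions at CTCF sites, and none was called by edgeR (unadjusted p under 0.05 in 0, DESeq2 called the 1 it could test). KO 1 was high and KO 2 low at all 7. The summed level was 62.5 CPM in KO 1 and 5.28 CPM in KO 2, against 12.6 CPM in WT 1 and 9.37 CPM in WT 2. At the Gapdh site RAD21 had 4.70 and 0.278 CPM in KO, against 1.21 and 0.982 CPM in WT, where the KO 2 value stands for 2 reads. Without KO 2 all 7 were called higher (median log2 2.64), and without KO 1 none was (median -0.98). Over the whole RAD21 set, 0.77% of RAD21 regions at CTCF sites were called higher and 0.189% lower.

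CTCF itself had 16 regions at these sites, and none was called by edgeR, DESeq2 or limma (edgeR's unadjusted p under 0.05 took in 1 higher and 0 lower). The summed level was 369.4 CPM in KO 1 and 404.9 CPM in KO 2, against 328.8 CPM in WT 1 and 109.6 CPM in WT 2. The KO libraries and WT 1 were close, and WT 2 was low. The site rule asked for CTCF peaks in KO 1, KO 2 and WT 1 but not in WT 2. That rule favours this order and the calls without WT 1, so they are not independent of it. Without WT 2, 4 of the 16 were called higher and 1, at the Pgk1 start site, lower, with a median of 0.55. Without WT 1 all 16 were called higher, with a median of 2.19. Over all CTCF regions at these sites 0.0111% were called higher and 0.00554% lower. At the start of Pfkl CTCF had 14.2 and 17.9 CPM in KO, against 14.1 and 4.09 CPM in WT. A region 753 bp from the start of Aldoa is not among the 16, since it held a CTCF peak in both KO libraries and in neither WT library. CTCF there had 13.1 and 18.5 CPM in KO, against 17.8 and 6.58 CPM in WT. Neither was called (log2 0.86 and 0.40).

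**Figure D3:**
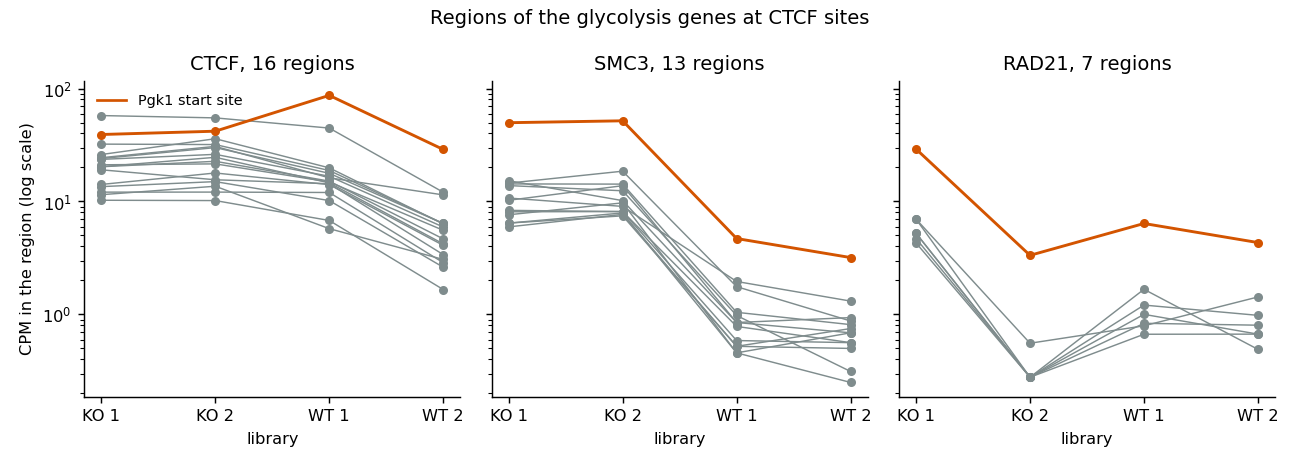
CPM (log y axis) of each region of the 10 genes at a CTCF site in each library (x axis), for CTCF, SMC3 and RAD21, with lines joining 1 region and the Pgk1 start site in orange. SMC3 is high in both KO libraries, RAD21 in KO 1 only, and CTCF is low in WT 2.

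ATPneg libraries were deposited as peak lists, so their levels at these regions were not analysed here, and presence of a peak (1 bp overlap) was compared. At the 13 SMC3 regions at CTCF sites, 13 held a peak in both ATPneg libraries and 9 in both KO libraries, against 1, the Pgk1 start site, in both WT libraries. The other 12 had no peak in either WT library, so the low WT count is not independent of which regions the set holds. Among all SMC3 regions at CTCF sites, 96.0% held a peak in both ATPneg libraries and 68.5% in both KO libraries, against 1.27% in both WT libraries. Over all 44 SMC3 regions of the genes, 14 held a peak in both ATPneg libraries (20.2% of all SMC3 regions) and 16 in both WT libraries (31.9%). With peaks of at least 2 times the lowest score these counts were 14 in ATPneg and 4 in WT. Away from CTCF sites the count was 1 in ATPneg, at the dense-input spot upstream of Hk1, against 15 in WT (6.94% and 37.3% of all SMC3 regions away from CTCF sites). With 2 libraries against 2, an exact permutation test could not go below p = 0.3333, and none was run.

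RAD21 after oligomycin showed 8 of 43 regions with a peak in both ATPneg libraries (8.02% of all RAD21 regions), against 20 in both WT libraries (33.3%). Of the 7 RAD21 regions at CTCF sites, 5 held a peak in both ATPneg libraries, against 0 in both WT libraries, and both Eno1 sites held one in ATPneg 2 only. Among all RAD21 regions at CTCF sites the shares were 58.8% in ATPneg and 2.03% in WT. When peaks needed a score of at least 2 times the lowest of their list, the 8 became 4, against 6 in WT. NIPBL had 3 of 28 regions with a peak in both ATPneg libraries (12.9% of all NIPBL regions), against 10 in WT (33.1%), and WAPL 2 of 47 (1.64% of all WAPL regions), against 22 in WT (41.6%). The Pgk1 start site was among them for all 4 proteins, and the dense-input spot upstream of Hk1 for NIPBL and WAPL. Peak lists ran to 39437 and 40667 peaks for SMC3 in ATPneg, against 41044 and 64033 in WT, and to 3280 and 4623 for WAPL in ATPneg, against 76389 and 81317 in WT. The part of list size in these counts was not tested.

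Upstream of Pfkp, the platelet-type phosphofructokinase, lay short and long regions away from CTCF sites that behaved in the opposite way. Between 19 and 173 kb upstream, 16 SMC3 regions of 128 to 6463 bp (median 1343 bp) covered 36917 bp. Of these, 14 overlapped both a RAD21 and a WAPL region. Their summed SMC3 level was 2.90 and 2.87 CPM per kb in KO, against 6.75 and 7.28 CPM per kb in WT. For RAD21 (18 regions) it was 1.36 and 2.36 CPM per kb in KO, against 6.20 and 6.12 CPM per kb in WT. For WAPL (18 regions) it was 1.45 and 1.53 CPM per kb in KO, against 4.50 and 4.40 CPM per kb in WT. All 3 were lower in both KO libraries than in either WT library. NIPBL (13 regions) had 3.44 and 3.22 CPM per kb in KO, against 4.91 and 4.86 CPM per kb in WT, the smallest gap of the 4. SMC3 peaks lay in 0 and 0 of the 16 SMC3 regions in KO, against 11 and 16 in WT. Regions that hold peaks mainly in WT favour a higher level in WT. The lower KO levels here, and the calls and shares below, are therefore not independent of which regions the set holds.

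Single regions were called lower in 7 of 15 tested for SMC3 (median log2 -1.06), 9 of 18 for RAD21 (-1.65) and 15 of 18 for WAPL (-1.51), and none was called higher. For NIPBL none of 12 was called by edgeR, DESeq2 gave none an adjusted p, limma called none, and 6 were lower at an unadjusted p under 0.05 (median -0.55). Among all regions away from CTCF sites, of any length or input, 21.5% were called lower for SMC3 and 23.0% for RAD21. For WAPL that share was 27.7%, and for NIPBL 0.632%. Called higher were 7.47% for SMC3, 2.44% for RAD21, 13.0% for WAPL and 0.916% for NIPBL. The region 19.3 kb upstream, of 5737 bp for SMC3, had 14.1 and 15.6 CPM in KO, against 39.3 and 48.6 CPM in WT (log2 -1.57 ± 0.17, edgeR adjusted p = 0.00111). At the same place WAPL had 8.14 and 10.6 CPM in KO, against 28.7 and 28.7 CPM in WT (log2 -1.62 ± 0.15, edgeR adjusted p = 0.00228). RAD21 there had 7.38 and 15.8 CPM in KO, against 38.7 and 39.8 CPM in WT (log2 -1.76 ± 0.42, edgeR adjusted p = 0.0482). KO and WT libraries did not overlap for any of the 3 targets, as in most tested regions of the genes for these targets.

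Among all regions longer than 1 kb away from CTCF sites, 77.6% were called lower for SMC3, 80.4% for RAD21, 98.8% for WAPL and 3.82% for NIPBL, and among those of the 10 genes 8 of 13, 9 of 12, 14 of 14 and 0 of 9. The RAD21 count upstream of Pfkp was 0 without WT 1, without WT 2, with the replicate number as a block (samples share only that number), without a filter, with limma and when scaled on weak regions. The NIPBL count was 6 lower with library totals and 5 lower with the block. The WAPL count was 3 without KO 1 and 3 without KO 2. The SMC3 count was 11 without WT 2 and 4 with limma on the input-subtracted signal. No region upstream of Pfkp outside CTCF sites and dense input held a peak in either ATPneg library of SMC3, RAD21, NIPBL or WAPL. Such peaks were rare in long regions. Among all regions over 1 kb away from CTCF sites, 0.142% held one in both ATPneg libraries for SMC3. The share was 0.212% for RAD21, 0.117% for NIPBL and 0.0146% for WAPL. In both WT libraries the shares were 92.6% (SMC3), 97.5% (RAD21), 16.7% (NIPBL) and 97.6% (WAPL). At any length away from CTCF sites, the ATPneg shares were 6.94% (SMC3), 2.72% (RAD21), 12.9% (NIPBL) and 1.61% (WAPL). In KO, 3 of the RAD21 regions and 1 of the WAPL regions held one in KO 2, and none in KO 1. In WT, 11 and 16 of the 16 SMC3 regions held one, 17 and 15 of the 18 RAD21 regions, 4 and 12 of the 13 NIPBL regions, and 18 and 13 of the 18 WAPL regions.

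**Figure D4:**
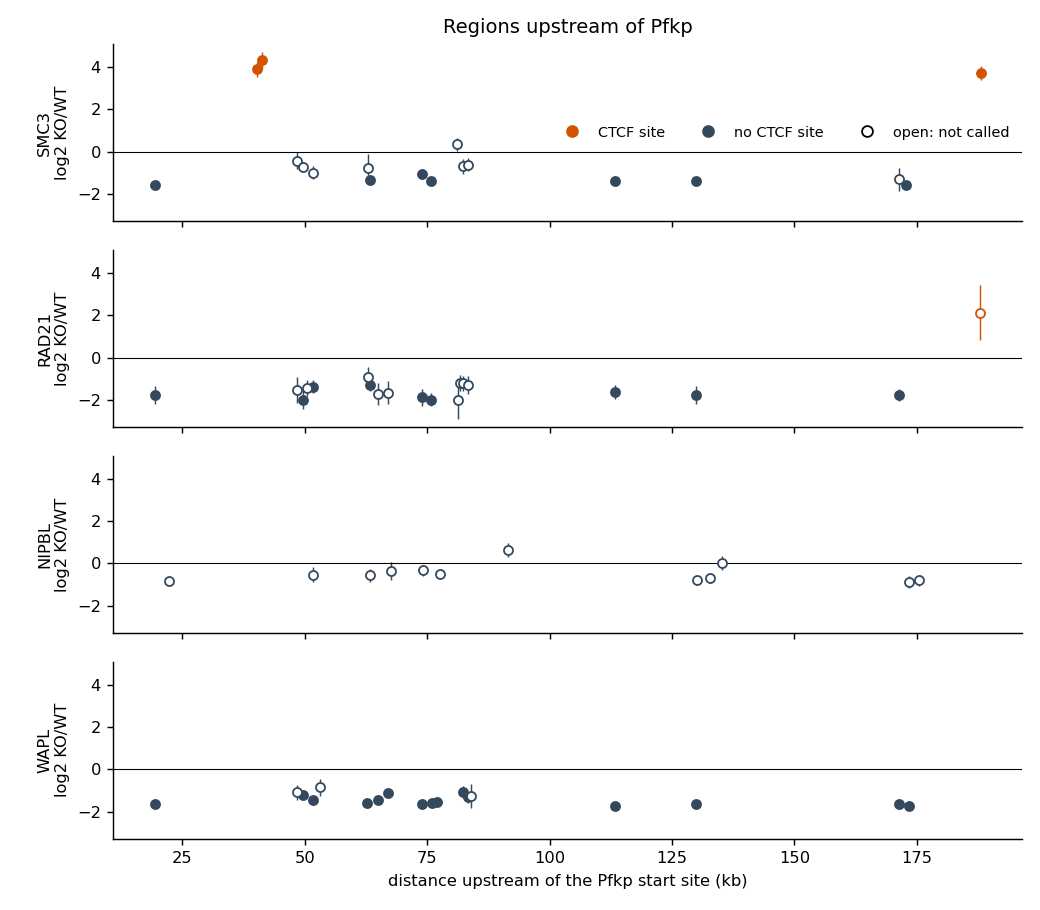
Log2 fold change, KO over WT, with its SE (y axis) against distance upstream of the Pfkp start site in kb (x axis) for tested regions with low input, by target. Orange points are CTCF sites, dark blue points the rest, and open points were not called. The 3 SMC3 regions at CTCF sites lie at 3.71 to 4.30 among neighbours at or below 0.35.

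At Pfkl, the liver-type phosphofructokinase, the same contrast was seen within 16 kb. A 3248 bp SMC3 region 11773 bp upstream lay between the pair of CTCF sites and had 10.3 and 11.99 CPM in KO, against 20.6 and 22.5 CPM in WT (log2 -0.95 ± 0.18, edgeR adjusted p = 0.00819). WAPL over this stretch had 5.45 and 4.56 CPM in KO, against 14.1 and 13.5 CPM in WT (log2 -1.46 ± 0.16, edgeR adjusted p = 0.00367). RAD21 had 1.48 and 1.81 CPM in KO, against 4.76 and 5.04 CPM in WT (log2 -1.57 ± 0.33, edgeR adjusted p = 0.0437). All 3 were lower in KO without overlap, which was common among the regions of the genes. The WAPL region held a WAPL peak in both WT libraries and in neither KO library, so the limit given for the Pfkp stretch holds here too. The WAPL call was lost without KO 1 (-1.59) or KO 2 (-1.33). The RAD21 call was lost without KO 1 (-0.87), WT 1 (-1.72) or WT 2 (-1.09), when scaled on weak regions (-0.72), without a filter (-1.28), with the replicate block (-1.58) and with limma (-1.80). A short SMC3 region 2622 bp inside Pfkl had 1.67 and 1.81 CPM in KO, against 26.8 and 11.6 CPM in WT (log2 -3.46 ± 0.53, edgeR adjusted p = 0.00361), the largest fall among the regions of the 10 genes.

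H3K4me1 was lower in KO at most start sites that carried it. Of the 7 genes with a region within 1 kb of the start, 5 fell, and Pfkp and Pgk1 were not called. Over all regions within 1 kb of a start site 56.1% were lower and 10.6% higher, and the medians were -0.80 for the 7 genes and -0.78 for all such regions. The B lineage markers were lower in KO at their starts as well (34.8 to 35.5 CPM per kb in KO, 73.3 to 74.4 in WT), and the part of this in the glycolysis genes was not tested. Pfkl had 0.486 and 0.872 CPM in KO, against 1.599 and 2.00 CPM in WT (log2 -1.40 ± 0.33, edgeR adjusted p = 0.000238). Aldoa, with the longest region at 2880 bp, had 9.97 and 9.18 CPM in KO, against 12.7 and 13.0 CPM in WT (log2 -0.43 ± 0.10, edgeR adjusted p = 0.000211). Gapdh had 2.19 and 2.32 CPM in KO, against 4.05 and 3.84 CPM in WT (log2 -0.80 ± 0.19, edgeR adjusted p = 0.000421). These 3 genes showed no overlap between KO and WT, as did 33 of the 57 tested H3K4me1 regions of the genes.

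Eno1 had 0.790 and 0.697 CPM in KO, against 2.02 and 2.00 CPM in WT (log2 -1.43 ± 0.31, edgeR adjusted p = 5.6e-05). Ldha had 1.34 and 1.51 CPM in KO, against 3.58 and 3.61 CPM in WT (log2 -1.33 ± 0.22, edgeR adjusted p = 4.94e-08). Pfkp went the other way, with 1.40 and 1.98 CPM in KO, against 0.988 and 1.04 CPM in WT (log2 0.73 ± 0.30, edgeR adjusted p = 0.0746). Both KO libraries lay above both WT libraries, the change was not called, and it was called when scaled on library totals (0.81) and without KO 1 (0.96). With DESeq2, 1 of the 5 falls, at Ldha, was called, and the other adjusted p-values were 0.0572 (Eno1), 0.11 (Pfkl), 0.137 (Aldoa) and 0.144 (Gapdh). Within Eno1, 2006 bp past the start, H3K4me1 had 2.67 and 1.86 CPM in KO, against 0.706 and 0.846 CPM in WT, a rise of log2 1.52 ± 0.29 (edgeR adjusted p = 3.31e-06) beside the fall at the start.

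**Figure D5:**
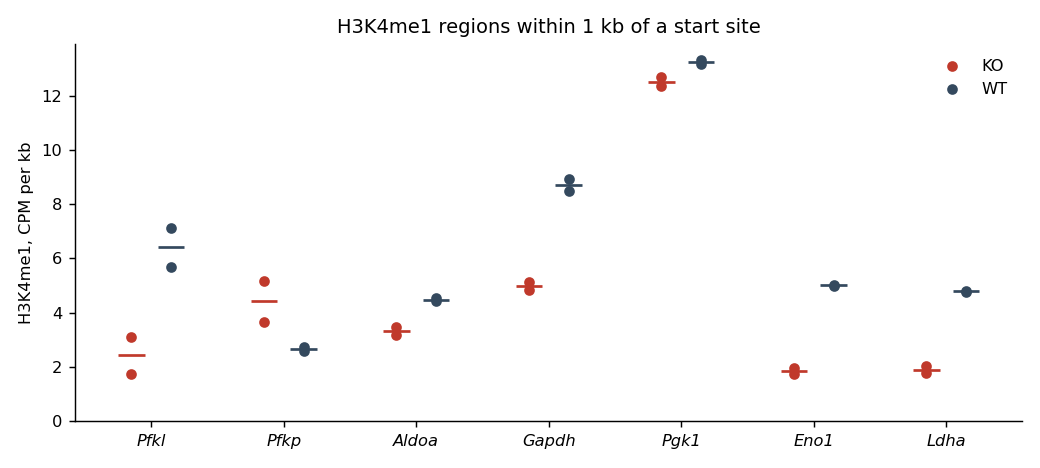
H3K4me1 in CPM per kb of region (linear y axis from 0) at the 7 genes with a region within 1 kb of the start (x axis, in pathway order), KO in red left of WT in dark blue, with points for libraries and bars for means. Per kb, Pgk1 is highest in both groups, at 12.7 and 12.4 in KO and 13.3 and 13.2 in WT, and the largest gaps are at Pfkl, Gapdh, Eno1 and Ldha.

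H3K27ac had a region within 1 kb of the start at Pgk1 and Hk1 only (8.48% of all such regions were higher and 22.2% lower). At Hk1 it had 0.919 and 1.11 CPM in KO, against 1.15 and 1.21 CPM in WT, and was not called (log2 -0.22 ± 0.28, edgeR adjusted p = 0.677). Of the remaining 4 regions that rose, Hk2, the inducible hexokinase, held 2, at 18833 and 32346 bp upstream (log2 0.48 and 0.96). Ldha held 1 at 10758 bp upstream (0.93), and Tpi1 held 1 at 1836 bp upstream. The first Hk2 region had 4.64 and 4.26 CPM in KO, against 3.09 and 3.27 CPM in WT, and its call was lost without KO 1 (0.42), without WT 1 (0.45), under DESeq2 and when scaled on weak regions. Under that scaling all 4 calls were lost, and Pgk1 was the 1 region still higher (2.68). Of the 6 regions that fell, 4 belonged to Pfkp, 1 to Hk1 and 1 to Hk2, with log2 changes of -0.26 to -0.63, and 5 of them overlapped regions of dense input (over 100 input reads per kb) in the tables with input counts.

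Of 26 other genes of the pathway and its regulators and transporters, 7 had an H3K4me1 region within 1 kb of the start, and 1 rose and 5 fell (median -1.13). Over all such regions 10.6% were higher and 56.1% lower. Pfkm, the muscle-type phosphofructokinase, had 3.10 and 2.67 CPM in KO, against 13.3 and 11.5 CPM in WT (log2 -2.10 ± 0.14). Adpgk, the ADP-dependent glucokinase, fell by 2.57 on the log2 scale. The glucose transporter Slc2a1 fell by 1.29, the monocarboxylate transporter Slc16a1 by 1.08, and Pfkfb3, which makes the activator of phosphofructokinase, by 1.13. The lactate exporter Slc16a3 had 1.70 and 1.16 CPM in KO, against 0.423 and 0.884 CPM in WT, and rose by 1.07 on the log2 scale. H3K27ac near the starts of these genes rose at Aldoc (2.39) and fell at Adpgk (-1.30), of 4 tested (8.48% and 22.2% of all such regions). Over all their regions SMC3 was higher in 23 and lower in 6 of 47 tested (22.1% and 18.1% of all SMC3 regions), not split by CTCF site. RAD21 was higher in 1 and lower in 8 of 51 (2.3% and 21.1%), and NIPBL in 1 and 0 of 36 (0.995% and 0.63%). WAPL was higher in 7 and lower in 16 of 64 (13.1% and 27.6%). CTCF was called in none of 63 (0.00792% and 0.0317%).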

How the data were processed

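Per the labels, chromatin of sorted small pre-B cells was precipitated for 7 targets, with 36 ChIP libraries and 4 inputs. The submitters' processing notes name BWA, Picard, MACS2, bedtools, featureCounts and edgeR, and the build mm9, with no versions. The authors deposited read counts per merged region (ChIP libraries and 1 input column per genotype), a normalized input-subtracted signal, and peak lists per library with a score, per the file headers. In the deposited signal each column is the authors' subtracted count times 1 constant. Its NA rows were dropped. Peak scores begin at about 5.00 in every list. 2 columns of per-sample values were not used.

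Each region went to its nearest gene within 200 kb, from the authors' annotation columns. KO and WT counts were tested per target with edgeR 4.0.16 (quasi-likelihood F test, TMM, filterByExpr, R 4.3.3) over all regions, with Benjamini-Hochberg adjusted p under 0.05 as a call. CPM is counts scaled to the TMM-adjusted total of reads in tested regions. One region was untested in each of the CTCF, SMC3, NIPBL and H3K27ac sets. The test was also run on simulated SMC3 data in which few regions changed, all with ample reads, and all libraries had the same spread. That setting differs from these data, so it does not cover regions with few reads or replicates that stand apart. Intervals and p-values rest on the 2 libraries per group, which the series text calls biological replicates. Each SE was taken from the edgeR fit, as the size of the log2 change over the square root of its F statistic. That fit shares information on spread across all regions of a target, so the SE is not the spread of the 2 libraries alone. Alternatives were library totals, scaling on the 25% of regions with the lowest CPM, no filter, DESeq2 1.42.0, limma 3.58.1 on log2(signal + 1), a replicate block, leaving out each library, and regions within 20 kb. Named were, per gene and target, the region nearest the start within 1 kb and the strongest called region above median level, and the text also gives regions chosen after their values were seen (CTCF sites, the stretch upstream of Pfkp, Eno1 at 2006 bp, Pfkl at 2622 bp, Hk1 at 17.8 kb, the Hk2 and Ldha H3K27ac regions). The genes and lists were chosen with earlier results of these data known. A further list of cell markers is not reported here. Dense input is over 100 reads per kb, and a histone region counts as dense where it overlaps such a region of the other 5 tables. The deposited mm9 regions and the RefSeq promoters of GRCm38.p6 were not joined by coordinates. Python 3.11.15 was used with numpy 2.4.6, pandas 2.3.3 and matplotlib 3.10.9.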

Additional observations from a re-analysis of the deposited data

How the results depend on the processing

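The number of regions of the 10 genes called was 24 for SMC3, 13 for RAD21, 2 for NIPBL, 27 for WAPL, 11 for H3K27ac, 12 for H3K4me1 and 0 for CTCF, and most alternatives other than those given here moved these by no more than 1.5 times. Scaling on weak regions gave 0 for RAD21, 4 for NIPBL and 17 for H3K27ac, and library totals gave 8 for NIPBL. No filter gave 0 for RAD21. DESeq2 gave 17 for WAPL, 5 for H3K27ac and 6 for H3K4me1. Limma gave 2 for CTCF, 0 for RAD21 and 0 for NIPBL. Within 20 kb the counts were 13 for SMC3, 3 for RAD21, 6 for WAPL and 5 for H3K27ac, since fewer regions were counted. Leaving out 1 library gave 0 to 36 for CTCF (36 without WT 1, 9 without WT 2), 19 to 36 for SMC3 (36 without WT 2), 0 to 31 for RAD21 (20 without KO 1, 31 without KO 2, 0 without WT 1 or WT 2), 0 to 0 for NIPBL (each library), 3 to 32 for WAPL (3 without KO 1, 4 without KO 2), 7 to 11 for H3K27ac (7 without KO 1) and 10 to 11 for H3K4me1. The replicate block gave 0 for RAD21, 11 for NIPBL, 24 for WAPL and 12 for H3K27ac. Replicate numbers are not stated to pair the libraries. Deviations of same-numbered libraries correlated at -0.22 for CTCF, -0.06 for SMC3 and 0.00 to 0.03 for the rest, over 2 pairs each, which cannot settle whether they were paired. The RAD21 ATPneg count of 8 was 4 for peaks with at least 2 times the lowest score. Leaving out 1 ATPneg library gave 15 to 15 for SMC3, 9 to 10 for RAD21, 4 to 4 for NIPBL and 2 to 3 for WAPL. Of the named regions, 305 alternative values kept their direction and side of the threshold, 52 lost the call, 7 gained one and 3 turned: CTCF at Aldoa without WT 2 (-0.15), CTCF at Pgk1 without WT 1 (0.54, and -1.09 without WT 2) and RAD21 at Pgk1 without KO 1 (-0.11, and 2.43 without KO 2). CTCF at Aldoa was 1.32 and called without WT 1. Over all regions, RAD21 had 1954 higher and 17897 lower, and 0 of either under scaling on weak regions, no filter, the block, limma, and without WT 1 or WT 2. WAPL had 16498 higher and 34829 lower, and 81 and 3852 without KO 1. CTCF had 6 higher and 24 lower, and 30279 and 36186 without WT 1. The median log2 change of all regions under scaling on weak regions was 0.42 for RAD21 (otherwise -0.39), 0.55 for WAPL (0.07), 0.18 for SMC3 (-0.22), 0.05 for CTCF (-0.37), 0.16 for NIPBL (0.00) and -0.17 for H3K27ac (0.02). The causes were not tested. For SMC3, RAD21 and NIPBL the KO libraries were shallower than the WT libraries, and 3 of the 4 CTCF libraries were as shallow, which limits the precision of short regions with few reads.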

Other observations

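Short regions near Hk1, Pfkl and Tpi1 had high levels, in all 7 targets at Hk1, in 3 at Pfkl and in 2 at Tpi1. The spot about 4.8 kb upstream of Hk1 held 620 input reads in KO and 668 in WT over 297 bp in the SMC3 table. SMC3 there had 125 and 119 CPM in KO, against 51.1 and 48.2 CPM in WT (log2 1.30 ± 0.11). WAPL was higher by 0.84 and NIPBL by 0.61, while H3K4me1 had 46.2 and 50.3 CPM in KO, against 84.3 and 91.6 CPM in WT (log2 -0.87 ± 0.05). CTCF (-0.83) and H3K27ac (-0.06) were not called. The NIPBL call was lost when any 1 library was left out, and the WAPL call without KO 1 (0.69). The spot 3.6 kb upstream of Pfkl held 8325 input reads in KO and 8127 in WT over 109 bp in the RAD21 table, the densest among the regions of the 5 tables with input counts. RAD21 had 314 and 264 CPM in KO, against 158 and 164 CPM in WT (log2 0.84 ± 0.21), H3K4me1 was higher by 0.48, and H3K27ac (-0.05) was not called. The 113 bp spot 1836 bp upstream of Tpi1 had 100.8 and 104 CPM of H3K27ac in KO, against 84.7 and 84.7 CPM in WT (log2 0.27 ± 0.04, and 0.08 and not called when scaled on weak regions), and 99.5 and 97.3 CPM of H3K4me1 in KO, against 119.8 and 109.9 CPM in WT (log2 -0.22 ± 0.04). Input reads there were not counted, since no input column of the histone tables was used. The part of input in these changes was not tested.

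At 17.8 kb past the Hk1 start a 111 bp WAPL region with 4 input reads in KO and 6 in WT had 1.76 and 2.28 CPM in KO, against 0.290 and 0.396 CPM in WT (log2 2.54 ± 0.32, edgeR adjusted p = 0.00524). It was the largest rise of WAPL among the regions of the 10 genes. Without KO 1 no WAPL region of the genes was called higher (3 lower), and without KO 2 the 1 called higher was the spot 4741 bp upstream of Hk1. SMC3 at the same spot had 3.82 and 7.24 CPM in KO, against 24.02 and 2.31 CPM in WT, with WT 1 above all others, and was not called.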
